A study of Mus musculus with 12 samples.

Results

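The chemokine, neurotrophin and insulin-like growth factor genes of the granule layer niche were followed in the external granule layer of the mouse cerebellum, cut out by laser. They are 9 genes chosen by name: the receptors Cxcr4, Ackr3, Ntrk2, Ntrk3 and Igf1r and the ligands Cxcl12, Bdnf, Igf1 and Igf2. All 9 were found among the 53379 genes of the deposited count tables, and 7 of them, all but Bdnf and Igf2, passed the filter on low counts. The layer was cut from the central lobules of C57BL/6 mice at postnatal day 6, with a conditional knockout of SnoN (gene Skil, a regulator that binds SMAD proteins) or from control littermates called wild type. The labels name neither the Cre driver nor the deleted exons, and do not say whether each library is a separate animal, so the p-values measure the spread between libraries. There were 6 knockout libraries, numbered 2, 3, 4, 5, 6 and 8 (KO2 to KO8), and 6 wild-type libraries, numbered 1, 2, 3, 5, 6 and 7 (WT1 to WT7). The submitters marked KO4 and WT2 as outliers, so the comparison used 5 against 5, with the marked libraries given beside it. KO2 is a knockout by its title, but its genotype tag says wild type.

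In the young cerebellum the meninges release the chemokine CXCL12, and granule neuron precursors carry its receptor CXCR4, which draws them to the surface where they divide. ACKR3 binds the same chemokine and removes it without the usual G protein signal. The neurotrophin BDNF acts through TrkB (Ntrk2) and neurotrophin-3 through TrkC (Ntrk3), receptor kinases known here for the survival and inward migration of granule neurons. IGF1 and IGF2 act through the receptor kinase encoded by Igf1r and promote the growth and survival of the precursors.

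SnoN acts with SMAD proteins, so the stretch from 250 bases before to 50 after the annotated start was searched for the SMAD-binding letters CAGAC on either strand (GTCTG on the other). RefSeq (GRCm38.p6) gave 17 such windows for 8 of the 9 genes, and Ntrk3 was not matched. The letters were in 8 of the 17 windows, against 49.6% of all 32851 windows of this length. They were in windows of 3 genes, Igf1r, Bdnf and Igf2, and in none of Cxcr4, Ackr3, Cxcl12, Igf1 or Ntrk2; a match is a run of letters, not a binding site. Shown are the windows of Cxcr4, the most abundant of these transcripts per length, and of the pair Igf1 and Igf1r, ligand and receptor of 1 pathway; capitals mark CAGAC, which only the Igf1r window holds.
Cxcr4: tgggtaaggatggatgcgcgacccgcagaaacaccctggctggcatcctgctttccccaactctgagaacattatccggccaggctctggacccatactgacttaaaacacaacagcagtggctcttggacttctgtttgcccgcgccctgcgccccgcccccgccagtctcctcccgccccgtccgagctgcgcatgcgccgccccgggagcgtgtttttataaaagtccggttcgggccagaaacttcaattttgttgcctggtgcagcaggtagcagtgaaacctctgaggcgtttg
Igf1: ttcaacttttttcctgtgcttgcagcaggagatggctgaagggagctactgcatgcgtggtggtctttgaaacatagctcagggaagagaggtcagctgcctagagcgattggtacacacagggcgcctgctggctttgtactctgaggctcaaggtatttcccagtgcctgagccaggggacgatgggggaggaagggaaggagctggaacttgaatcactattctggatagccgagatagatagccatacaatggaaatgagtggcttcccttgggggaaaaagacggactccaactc
Igf1r: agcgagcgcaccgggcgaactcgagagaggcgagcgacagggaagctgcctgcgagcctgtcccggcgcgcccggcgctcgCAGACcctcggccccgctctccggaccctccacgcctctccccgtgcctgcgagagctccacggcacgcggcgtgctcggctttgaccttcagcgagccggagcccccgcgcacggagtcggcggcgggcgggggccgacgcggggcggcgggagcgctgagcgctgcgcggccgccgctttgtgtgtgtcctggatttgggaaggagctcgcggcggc
These windows lie at chr1:128592250-128592549 (minus strand), chr10:87860861-87861160 (plus) and chr7:67952007-67952306 (plus), and their GC content is 59.3%, 52.3% and 76.0% in that order. The start that RefSeq uses for Igf1r lies before the start of the gene in the other annotation used here. For Igf1 the whole window lies inside the gene of that annotation, which begins at 87858265, so the sequence at that start was not searched.

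The deposited gene counts summed to 9839274 to 15083086 in the knockout libraries and 7520076 to 14790995 in the wild-type libraries. Levels are given as TMM-scaled CPM, that is, reads of a gene per 1e+06 reads of the genes that passed the filter. Each library's total was first multiplied by its TMM factor, from 0.874 in WT2 to 1.08 in WT6. Skil, the targeted gene, was at 36.1, 36.7, 20.9, 30.1 and 29.9 CPM in KO2, KO3, KO5, KO6 and KO8 and at 47.5, 57.8, 57.3, 38.5 and 48.5 CPM in WT1, WT3, WT5, WT6 and WT7, with 14.0 CPM in KO4 and 76.5 CPM in WT2. Every knockout library was below every wild-type library, and the log2 fold change was -0.70 (SE 0.15, adjusted p = 0.124 in edgeR's test). Skil passed with DESeq2 (adjusted p = 0.00909), without the filter on low counts (0.000260), without KO5 (0.00275), with GC correction (-0.94, adjusted p = 0.000756) and with 1 surrogate variable (-1.06, adjusted p = 3.29e-05), and over 24 alternatives the adjusted p reached up to 0.9985. Of 10 granule precursor markers all had counts in all 12 libraries, and their CPM summed to 2561 to 3079 in knockout and 2457 to 2752 in wild type (5 libraries each). Markers of other cell types were detected as well. Purkinje cell markers (10 genes, led by Car8) summed to 317 to 543 CPM in knockout and 248 to 370 CPM in wild type, and glial markers (10 genes, led by Fabp7) to 923 to 1491 and 685 to 1146 CPM. Meningeal markers (10 genes, led by Col3a1) summed to 457 to 885 CPM in knockout and 472 to 840 CPM in wild type, and microglial markers (10 genes, led by C1qa) to 34.1 to 55.3 and 40.3 to 47.9 CPM. Granule neuron markers (10 genes, led by Nfib) summed to 7111 to 12901 CPM in knockout and 6197 to 10084 CPM in wild type. Choroid plexus markers (8 genes, led by Otx2) summed to 97.9 to 131 CPM in knockout and 107 to 133 CPM in wild type. Nearly all of this came from Otx2 (means of 65.5 and 82.4 CPM) and Enpp2 (48.1 and 33.0 CPM), which had counts in every library. Kl, Clic6 and Aqp1 averaged at most 1.13 CPM in either group, and Ttr, Folr1 and Kcne2 were at 0 in at least 6 of the 12. The sum was therefore not taken as a measure of choroid plexus. In such tissue fewer cells of a type and less RNA per cell cannot be told apart.

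None of the 7 tested genes was called different between knockout and wild type, and in none did the knockout libraries separate completely from the wild-type libraries. Igf1 had the largest difference, 1.79 times as high in knockout, followed by the receptors Ackr3, at 1.66 times, and Igf1r, at 1.23 times; Cxcr4, Ntrk2, Ntrk3 and Cxcl12 differed by less. In edgeR's quasi-likelihood test, 0 of 7 passed a Benjamini-Hochberg adjusted p of 0.05, where 0.0223% of all 13442 genes tested passed. An unadjusted p under 0.05 was found for 3 of 7, Igf1, Ackr3 and Igf1r, all higher in knockout; of all tested genes 21.8% had such a p, 11.8% with the higher and 9.97% with the lower level in knockout. DESeq2 called 1 of them, Igf1, and 466 of the 9818 genes to which it gave an adjusted p (4.75%). Groups that do not overlap were found in 2.35% of tested genes and in 0 of these 9.

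**Figure D1:**
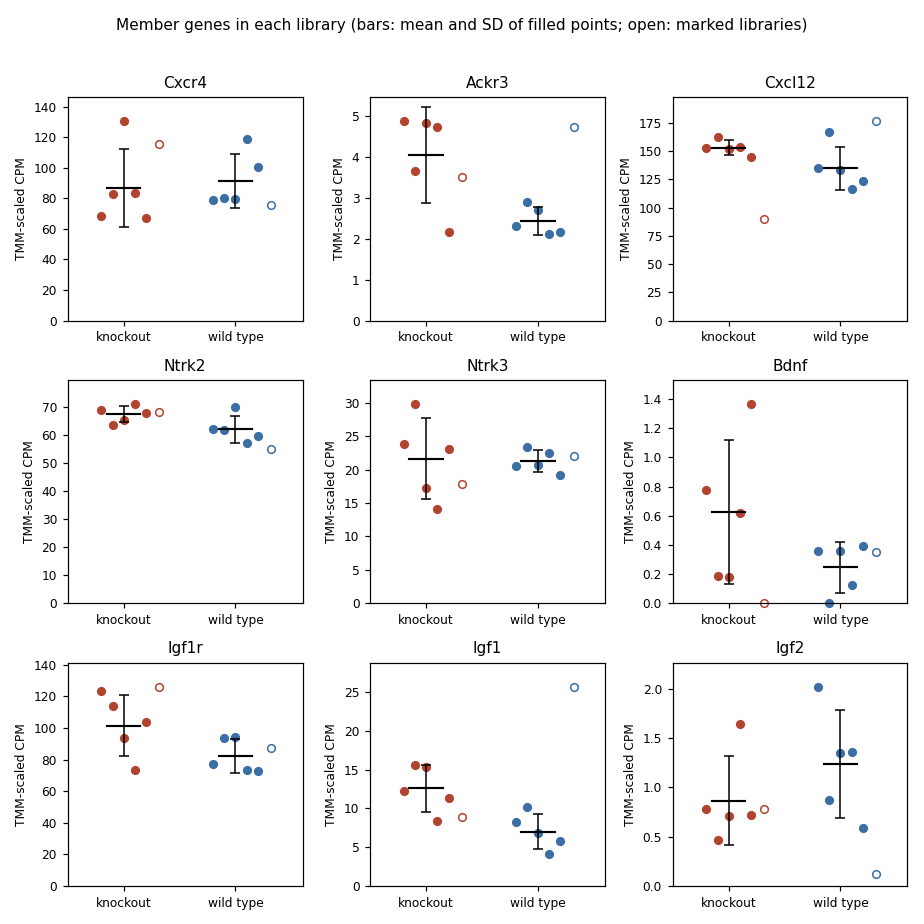
TMM-scaled CPM (y axis, from 0) of each gene in each library, knockout left and wild type right; filled points are the 5 compared libraries with mean and SD, open points the marked libraries KO4 and WT2. The groups overlap in every panel, and Igf1 in WT2, at 25.8 CPM, lies above all other libraries.

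Levels of different genes were compared per length, as CPM per kb of annotated exon. Cxcr4 stood highest, at 47.9 ± 14.2 CPM per kb in knockout and 50.7 ± 9.84 in wild type (SD, n = 5 each), above 91.4% of tested genes in wild type. Its ligand Cxcl12 came next, at 18.7 ± 0.80 in knockout and 16.5 ± 2.33 CPM per kb in wild type. Igf1r followed at 6.04 ± 1.15 and 4.89 ± 0.651 CPM per kb and Ntrk2 at 3.49 ± 0.152 and 3.21 ± 0.249 CPM per kb, knockout before wild type. With this length the 4 levels did not overlap with one another in either group. Ackr3, Igf1 and Ntrk3 had nearly equal wild-type levels of 0.727, 0.709 and 0.706 CPM per kb, whose library ranges overlapped, and in knockout they stood at 1.21, 1.27 and 0.718 CPM per kb, again with overlapping ranges. Igf2 and Bdnf were lowest, at 0.151 and 0.101 CPM per kb in knockout and 0.216 and 0.0398 CPM per kb in wild type. With the longest transcript as the length, Igf1r was at 8.89 CPM per kb in knockout and 7.20 in wild type and Ntrk2 at 7.69 and 7.08 CPM per kb, and the library ranges of these receptors overlapped in both groups.

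**Figure D2:**
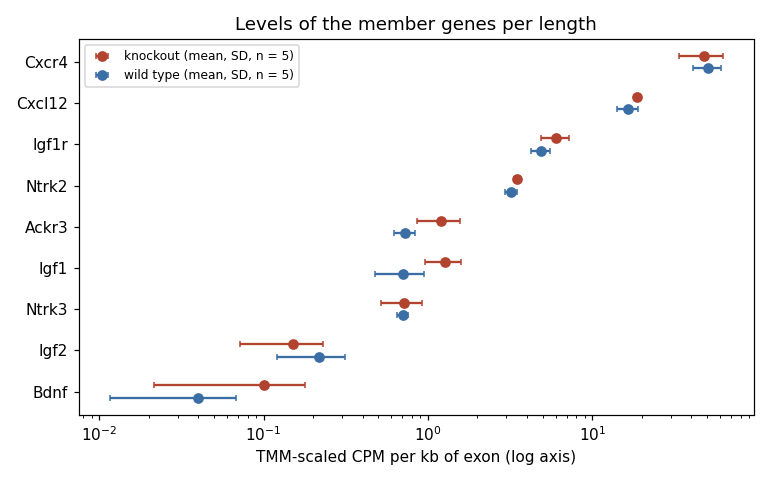
Mean level of each gene in CPM per kb of exon (log x axis) with its SD over 5 libraries, knockout above wild type in each row. The genes span from 47.9 CPM per kb for Cxcr4 to 0.101 for Bdnf in knockout, and from 50.7 to 0.0398 in wild type.

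Cxcr4 (ENSMUSG00000045382.6, chromosome 1, 128588199 to 128592293 in GRCm38, minus strand), the CXCL12 receptor of the precursors, was at 68.7, 83.0, 130.5, 83.8 and 67.4 CPM in KO2, KO3, KO5, KO6 and KO8 and at 78.7, 80.5, 79.4, 119.0 and 100.3 CPM in WT1, WT3, WT5, WT6 and WT7. KO5 was the highest and KO8 and KO2 were the lowest of the 10, so the knockout libraries enclosed the wild-type ones. The log2 fold change of knockout over wild type was -0.08 (SE 0.17, 95% interval -0.43 to 0.28, adjusted p = 0.810 in edgeR's test), so differences within that interval in either direction were not told apart from 0. Without KO5 it was -0.27 (adjusted p = 0.118), and without WT6 0.03. With 1 surrogate variable in the model it was 0.29 (adjusted p = 0.630), and over 24 alternative settings the adjusted p lay between 0.118 and 0.9985. KO4 and WT2 were at 115.3 and 75.6 CPM.

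Cxcr4 varied more between libraries of 1 group than most genes of its level: its pooled within-group SD was 0.33 on the log2(CPM + 1) scale, against a median of 0.18 over 3180 tested genes with means between 50 and 200 CPM. Among 10046 named genes with a mean of at least 5 CPM, those whose log2 CPM followed it most closely over the 10 compared libraries were Gli1, the transcription factor that reports Sonic hedgehog signalling (Pearson r = 0.96 over 10 libraries and 0.93 over 12), and Mdk, the growth factor midkine (r = 0.95 and 0.89). These r values describe the nearest genes of many and carry no test; the points share library and depth.

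Ackr3 (ENSMUSG00000044337.5, chromosome 1, 90203980 to 90216751, plus strand), the scavenging receptor, was low, with 17 to 54 reads per library. It was at 4.87, 3.64, 4.81, 4.73 and 2.16 CPM in KO2, KO3, KO5, KO6 and KO8 and at 2.31, 2.89, 2.70, 2.10 and 2.16 CPM in WT1, WT3, WT5, WT6 and WT7. KO8 lay among the wild-type values, and the other 4 knockout values exceeded them. The log2 fold change was 0.72 (SE 0.28, 95% interval 0.14 to 1.31, adjusted p = 0.165 in edgeR's test), and a two-sided exact permutation test on log2(CPM + 1) gave p = 0.0317 for 5 against 5, where the smallest possible is 0.00794. The marked WT2 was at 4.73 CPM, as high as the higher knockout libraries, and KO4 at 3.50 CPM; in the fit to all 12 libraries the log2 fold change was 0.49 (adjusted p = 0.9985; 0.132 to 0.9985 over 23 alternatives that gave one). Its nearest genes over the 10 libraries were the transcription factors Atf1 (r = 0.91) and Creb3l2 (r = 0.86).

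Cxcl12 (ENSMUSG00000061353.11, chromosome 6, 117168535 to 117181367, plus strand), the ligand of both receptors, was at 152.6, 162.8, 152.2, 154.0 and 144.5 CPM in KO2, KO3, KO5, KO6 and KO8 and at 134.8, 167, 133.1, 116.9 and 123.9 CPM in WT1, WT3, WT5, WT6 and WT7. The knockout values were close together, above 4 of the 5 wild-type values and below WT3. The log2 fold change was 0.18 (SE 0.10, 95% interval -0.03 to 0.40, adjusted p = 0.306 in edgeR's test). KO4 and WT2 stood the other way round, at 90.3 and 176.5 CPM, and with both in the fit the log2 fold change was 0.01. The meningeal marker sum, the vascular one and Cxcl12 were all lowest in KO4, at 428, 277 and 90.3 CPM. WT3, highest of the compared libraries for Cxcl12, had 840 CPM of meningeal markers, the highest of the wild-type libraries. Other libraries did not follow this order. KO5 had the highest meningeal sum of all 12, 885 CPM, but less Cxcl12 than KO2, KO3 and KO6. WT1 had the lowest meningeal sum of the wild-type libraries, 472 CPM, but more Cxcl12 than WT5, WT6 and WT7. The part of these cells in the Cxcl12 values was not tested. The nearest gene was Enpp2 (r = 0.95 over 10 libraries and 0.78 over 12), the lysophospholipase autotaxin, which is also on the choroid plexus list, at 48.1 CPM in knockout and 33.0 CPM in wild type on average.

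**Figure D3:**
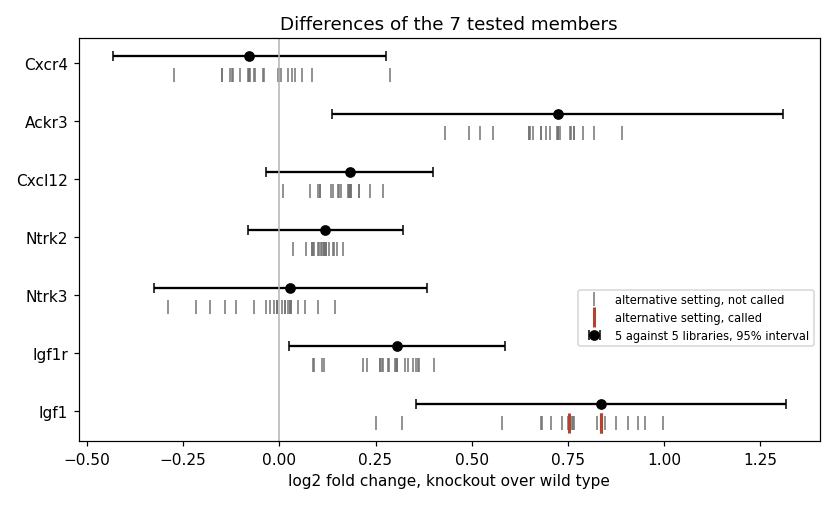
Log2 fold change of knockout over wild type (x axis) for the 7 tested genes; black points with 95% intervals are the comparison of 5 against 5 libraries and ticks are alternative settings. Igf1 is the gene with red ticks, settings in which it was called; the ticks of Cxcr4 and Ntrk3 fall on both sides of 0.

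The neurotrophin receptors differed little. Ntrk2 (ENSMUSG00000055254.15, chromosome 13, 58806569 to 59133970, plus strand) was at 68.9, 63.5, 65.3, 70.9 and 67.7 CPM in KO2, KO3, KO5, KO6 and KO8 and at 62.2, 61.5, 69.7, 56.9 and 59.4 CPM in WT1, WT3, WT5, WT6 and WT7. Of the wild-type libraries, 4 lay below all 5 knockout libraries and WT5 lay among them. It was the steadiest of the 7 genes, with a within-group SD of 0.09 in log2 units. The log2 fold change was 0.12 (SE 0.10, 95% interval -0.08 to 0.32, adjusted p = 0.473 in edgeR's test). Counts cover the whole gene, so the kinase form and the truncated forms of TrkB were not separated. Its nearest genes were the stress kinase gene Mapk9 (r = 0.93) and Ndufab1 (r = 0.89), which encodes the mitochondrial acyl carrier protein.

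Ntrk3 (ENSMUSG00000059146.12, chromosome 7, 78175959 to 78738012, minus strand) was at 23.8, 29.9, 17.3, 14.2 and 23.1 CPM in KO2, KO3, KO5, KO6 and KO8 and at 20.5, 23.4, 20.8, 22.5 and 19.2 CPM in WT1, WT3, WT5, WT6 and WT7. The knockout libraries spread to both sides of the wild-type ones. The means were 21.7 ± 6.11 CPM in knockout and 21.3 ± 1.68 CPM in wild type (SD, n = 5 each), and the log2 fold change was 0.03 (SE 0.17, 95% interval -0.33 to 0.38, adjusted p = 0.937 in edgeR's test). Over 24 alternative settings its sign was the same in 12. The genes closest to it were Pask, a PAS domain kinase (r = 0.93), and Spag5, a protein of the mitotic spindle (r = 0.92).

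Bdnf (ENSMUSG00000048482.14, chromosome 2, 109674700 to 109727007, plus strand) was barely detected and not tested. Its reads numbered 8, 2, 2, 6 and 19 in KO2, KO3, KO5, KO6 and KO8 and 5, 0, 4, 1 and 6 in WT1, WT3, WT5, WT6 and WT7, and KO8 alone held more than all the other knockout libraries together. The count of 0 in WT3 allows up to 0.289 CPM and that in KO4 up to 0.292 CPM, taking 3 counts as the limit of a 0 (counting error only). A two-sided exact permutation test gave p = 0.119 for 5 against 5. Of its exon bases, 14.4% also lie in the antisense gene Gm45346, and the labels give no strand setting.

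Igf1r (ENSMUSG00000005533.10, chromosome 7, 67952827 to 68233668, plus strand), the receptor of both insulin-like growth factors, was at 123.2, 113.8, 93.5, 73.1 and 103.6 CPM in KO2, KO3, KO5, KO6 and KO8 and at 77.3, 93.5, 94.5, 73.1 and 72.5 CPM in WT1, WT3, WT5, WT6 and WT7. KO2, KO3 and KO8 exceeded every wild-type value, while KO5 lay beside the highest of these and KO6 beside the lowest. The log2 fold change was 0.31 (SE 0.13, 95% interval 0.02 to 0.59, adjusted p = 0.198 in edgeR's test), and the two-sided exact permutation test gave p = 0.111. With KO2 counted as wild type, as its tag says, it was 0.11 (adjusted p = 0.862; 0.0657 to 0.9985 over 24 alternatives). KO4 and WT2 were at 126.2 and 87.3 CPM. The nearest genes were Top1, DNA topoisomerase 1 (r = 0.96), and Slitrk5, a synaptic adhesion protein (r = 0.96).

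Igf1 (ENSMUSG00000020053.18, chromosome 10, 87858265 to 87937042, plus strand) was at 12.3, 15.6, 15.4, 8.33 and 11.4 CPM in KO2, KO3, KO5, KO6 and KO8 and at 8.31, 10.1, 6.84, 4.08 and 5.75 CPM in WT1, WT3, WT5, WT6 and WT7. KO6 was above every wild-type library but WT3, and the other 4 knockout libraries were above all 5. The means were 12.6 ± 3.03 CPM in knockout and 7.02 ± 2.32 CPM in wild type (SD, n = 5 each), from 705 reads in the knockout libraries and 417 in the wild-type ones. The log2 fold change was 0.84 (SE 0.23, 95% interval 0.36 to 1.32), with an unadjusted p of 0.00178 and an adjusted p of 0.131 in edgeR's test; the two-sided exact permutation test gave p = 0.0159. Igf1 passed with DESeq2 (adjusted p = 0.0284), without the filter on low counts (0.00422, where 3.49% of genes passed) and without KO5 (0.0207, where 22.9% of genes passed). The marked WT2, at 25.8 CPM, was the highest of all 12 libraries, and KO4 was at 8.86 CPM; in the fit to all 12 the log2 fold change was 0.25 (adjusted p = 0.9985), and without WT2 alone 0.76 (adjusted p = 0.278). Over 24 alternatives its adjusted p lay between 0.00422 and 0.9985.

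Marker sums and GC content were set beside Igf1. The Purkinje, granule neuron, glial and meningeal sums were higher in mean in knockout, like Igf1, but single libraries did not all follow it. Igf1 and the Purkinje sum were both highest in WT2 and, of the compared libraries, in KO3. The Purkinje sum was 375 CPM in KO5 and 451 CPM in KO2, which had less Igf1 (12.3 CPM). KO5, at 15.4 CPM of Igf1, had the lowest granule neuron and glial sums of the knockout libraries, 7111 and 923 CPM. Summed Purkinje markers averaged 410 ± 88.7 CPM in knockout and 299 ± 49.7 CPM in wild type (SD, n = 5 each), a ratio of 1.37, with 294 CPM in KO4 and 665 CPM in WT2. Of that list, Calb1 was at 138 CPM in knockout and 90.1 CPM in wild type on average and Car8 at 164 and 121 CPM, while Skor2 was at 0 in 4 of 12 libraries. Granule neuron markers averaged 10506 ± 2416 CPM in knockout and 8182 ± 1579 CPM in wild type, a ratio of 1.28. This sum was 8994 CPM in KO4 and 11437 CPM in WT2, the highest of the wild-type libraries. Most of it came from Nfib (4579 CPM in knockout and 3352 CPM in wild type) and Neurod1 (3628 and 2582 CPM). Nhlh2, Dcx and Grin2b were also higher in mean in knockout. Lower in mean were Cntn2 (242 and 313 CPM), Nhlh1 (56.0 and 70.0 CPM), Tubb3 (945 and 1049 CPM) and Rbfox3 (116 and 124 CPM). Glial markers averaged 1261 ± 224 CPM in knockout and 998 ± 183 CPM in wild type, with 2311 CPM in WT2. More than any other gene, Fabp7 set this sum, at 688 CPM in knockout and 513 CPM in wild type. Slc1a3, Aqp4, Slc1a2, Sparcl1 and Ptprz1 were also higher in mean in knockout, and Gdf10 was at 13.7 CPM in both groups. Lower in mean were Gfap (20.7 and 28.7 CPM), Aldh1l1 (21.7 and 24.9 CPM) and Hopx (17.2 and 17.9 CPM). The meningeal sum had a ratio of 1.17 and, like Igf1, was high in KO5 and KO3, at 885 and 755 CPM. The microglial sum had a ratio of 1.04. The part of these cells in the Igf1 values was not tested. The longest Igf1 transcript is poor in G and C, at 38.0%; the 1859 tested genes under 42% had a median log2 fold change of 0.28, and the 3561 genes of 54% or more had -0.17. After correction of every library for its GC trend, the log2 fold change of Igf1 was 0.58 (adjusted p = 0.231), that of Igf1r 0.33 (adjusted p = 0.248) and that of Ackr3 0.73 (adjusted p = 0.233). The gene nearest to Igf1 was Adgrl2, an adhesion receptor of the latrophilin family (r = 0.97 over 10 libraries and 0.84 over 12), and next was Fam114a2 (r = 0.94 and 0.52).

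**Figure D4:**
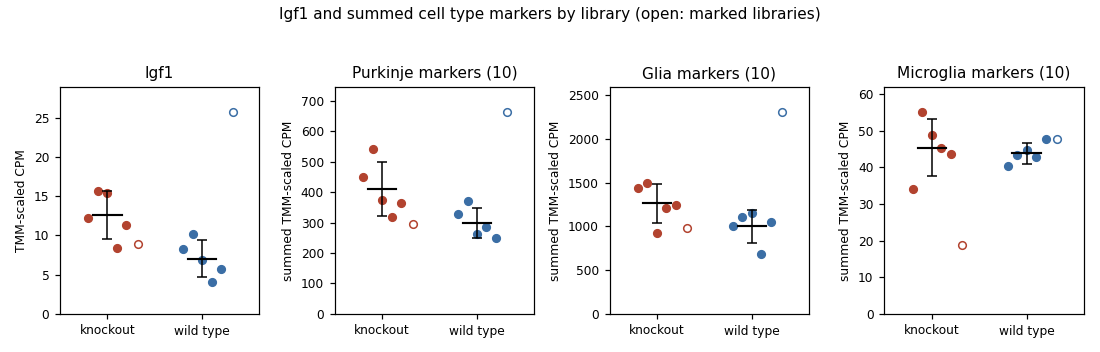
TMM-scaled CPM of Igf1 and summed CPM of 3 lists of 10 cell type markers (y axes from 0) by library, knockout left and wild type right; bars give mean and SD of the 5 filled points and open points are the marked libraries. WT2 is the highest wild-type library for Igf1, Purkinje and glial markers, at 25.8, 665 and 2311 CPM.

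Igf2 (ENSMUSG00000048583.16, chromosome 7, 142650766 to 142666816, minus strand) had few reads and was not tested. They numbered 8, 5, 8, 16 and 10 in KO2, KO3, KO5, KO6 and KO8 and 28, 9, 15, 11 and 9 in WT1, WT3, WT5, WT6 and WT7. The groups overlapped, at 0.865 ± 0.452 CPM in knockout and 1.24 ± 0.548 CPM in wild type (SD, n = 5 each), and the two-sided exact permutation test gave p = 0.270. Of its exon bases, 62.8% also belong to Gm49394, a gene on the same strand that is listed at 0 in all 12 tables. Reads in exons of 2 genes are not assigned by HTSeq's usual modes, so these counts may cover only part of Igf2. The imprinted neighbour H19, picked for mention after its values were seen, ranged from 3.31 to 71.7 CPM in knockout and from 6.21 to 18.6 CPM in wild type, with 39.7 CPM in WT2. Its highest value was in KO5, which also had the highest meningeal sum of the knockout libraries, 885 CPM. KO3 came next for both, at 25.0 CPM of H19 and a sum of 755 CPM. Other libraries did not all follow this order. KO2 had a higher sum than KO6, 632 against 573 CPM, but less H19, 6.42 against 21.3 CPM. The part of meningeal cells in the H19 values was not tested.

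The wider pathways were described with lists of genes that hold none of the 9. For CXCR4 signalling, 25 of 31 genes were tested, 0 were called in edgeR's test, and 3 (12%) had a higher and 6 (24%) a lower level in knockout with an unadjusted p below 0.05, at a median log2 fold change of -0.14 against 0.00 over all tested genes. Of all tested genes, 11.8% had a higher and 9.97% a lower level with such a p. The 4 with the smallest p were Ptk2, the focal adhesion kinase, at 53.5 ± 7.20 CPM in knockout and 69.9 ± 10.2 CPM in wild type; Hmgb1, a chromatin protein that binds CXCL12, at 298 ± 44.3 and 237 ± 21.7 CPM; Itch, a ubiquitin ligase acting on CXCR4, at 84.7 ± 14.1 and 67.0 ± 6.93 CPM; and the receptor kinase Grk3 at 25.6 ± 5.04 and 18.5 ± 4.31 CPM (SD, n = 5 each). Their adjusted p values lay between 0.133 and 0.155.

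For neurotrophin signalling, 31 of 33 genes were tested. In edgeR's test 0 were called, and an unadjusted p below 0.05 went with a higher level in 3 (9.68%) and a lower one in 4 (12.9%), at a median log2 fold change of -0.01. The shares over all tested genes were 11.8% higher and 9.97% lower. The adaptor Crkl was at 23.2 ± 5.72 CPM in knockout and 35.0 ± 6.80 CPM in wild type (log2 fold change -0.60, adjusted p = 0.131), and its relative Crk at 312 ± 32.2 and 260 ± 17.7 CPM. The small GTPase Rap1a was at 143 ± 26.8 and 109 ± 15.6 CPM and the kinase Cdk5 at 45.1 ± 5.27 and 56.2 ± 7.57 CPM. The p75 receptor Ngfr, named here after its values were seen, was at 32.7 ± 6.54 CPM in knockout and 42.9 ± 11.6 CPM in wild type (adjusted p = 0.194).

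For insulin-like growth factor signalling, 34 of 41 genes were tested. In edgeR's test 0 were called, and an unadjusted p below 0.05 went with a higher level in 8 (23.5%) and a lower one in 4 (11.8%), at a median log2 fold change of 0.12. Over all tested genes these shares were 11.8% and 9.97%. The smallest p was that of Pik3r2, a regulatory subunit of PI3 kinase, at 101 ± 15.6 CPM in knockout and 134 ± 8.64 CPM in wild type (log2 fold change -0.40, adjusted p = 0.131); every knockout library lay below every wild-type library, the highest knockout value being 118 CPM and the lowest wild-type value 121 CPM, as in 1.31% of all tested genes. Akt1, the kinase downstream of it, was at 273 ± 34.7 and 345 ± 37.4 CPM. On the higher side were Rictor, of the mTORC2 complex, at 28.7 ± 7.14 and 20.2 ± 3.39 CPM, and Pdpk1, the kinase that activates Akt, at 115 ± 30.3 and 85.2 ± 9.53 CPM. The marked libraries ran the other way for all 4: Pik3r2 was at 108 CPM in KO4 and 48.3 CPM in WT2, and Pdpk1 at 67.2 and 144 CPM.

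The GC content of these transcripts moved with their direction as well. Akt1 and Pik3r2 have 59.7% and 61.4% and were lower in mean, while Hmgb1, Rap1a and Rictor have 40.1%, 38.8% and 42.5% and were higher in mean. With the GC trend removed, the log2 fold change of Akt1 was -0.16, of Pik3r2 -0.23, of Hmgb1 0.08, of Rap1a 0.11 and of Rictor 0.30, and those of Ptk2 and Crkl were -0.43 and -0.61, against -0.39 and -0.60 before. In that fit an unadjusted p below 0.05 went with a higher level in 2 and a lower one in 2 genes of the CXCR4 list, in 1 and 2 of the neurotrophin list, and in 9 and 2 of the insulin-like growth factor list; of all tested genes it did so in 7.48% and 8.12%. DESeq2 called 2 genes of the 3 lists (31, 33 and 41 genes), Crkl (adjusted p = 0.0380) and Pik3r2 (0.0284). It called 4.75% of all genes to which it gave an adjusted p. Without KO5, 26 of the 90 list genes then tested were called (28.9%), where 22.9% of all genes were.

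**Figure D5:**
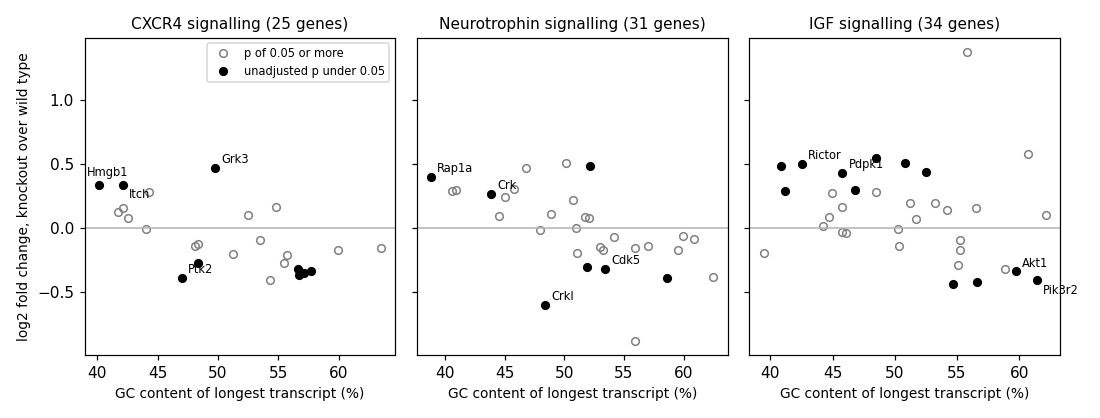
Log2 fold change of knockout over wild type (y axis) against the GC content of the longest transcript (x axis, percent) for the tested genes of the 3 pathway lists; filled points have an unadjusted p under 0.05 and the 4 genes with the smallest p are named. Rap1a, at a GC content of 38.8%, lies above 0 and Akt1, at 59.7%, below 0; Crkl, at 48.4%, lies at -0.60.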

How the data were processed

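Per the submitters' processing notes the reads were trimmed with cutadapt 1.16, aligned with STAR 2.5.3a to mm10 and counted with HTSeq 0.6.1, and DESeq2 is named; the sources used here give no settings, strand option or annotation release. Per the labels, the kit was NEBNext Ultra, which does not mark strand. What was deposited are raw counts per gene; 5 summary lines were left out. Of 53379 gene IDs, 53274 were matched to GENCODE M21 (GRCm38). Groups follow the titles. Genes were filtered with filterByExpr (minimum count 10), TMM-scaled and tested with edgeR 4.0.16 in R 4.3.3 (quasi-likelihood, Benjamini-Hochberg) over 13442 genes in 10 libraries. CPM uses factors over all 12 libraries and the 13318 genes filtered in them. Single genes were also compared by exact permutation of log2(CPM + 1) over 252 splits. Alternatives used DESeq2 1.42.0, limma 3.58.1 (voom), sva 3.50.0, other scalings and filters, a GC trend (spline with 5 degrees of freedom), the replicate number and single libraries left out. The edgeR fit of 5 against 5 libraries was run on simulated counts, drawn independently for each gene. No library repeats another of its group: chi-square per degree of freedom was 6.15 to 85.3 over 30 pairs.

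The 9 genes, the lists and the tests were chosen with earlier results of these data known. The genes named are the 9, in each list the 4 of smallest p, and the 2 with the highest correlation to each tested gene, with provisional names passed over.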

Additional observations from a re-analysis of the deposited data

Results flagged for a closer look

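In 132 groups of 5 or 6 libraries, 1 library stood apart in 16. Chance alone flags about 1 in 20 groups, but most of the 16 were in KO4 or WT2. The submitters had already marked these libraries as outliers, so the 16 cannot be held against the chance rate. The values of 1 gene in groups of 5 and of 6 libraries are not independent. Among the knockout libraries, Cxcr4 was at 130.5 CPM in KO5, with the next library at 83.8 CPM, and Cxcl12 was at 90.3 CPM in KO4, with the next at 144.5 CPM. Igf2 was at 1.64 CPM in KO6 in both group sizes, with the next at 0.779 CPM. The interneuron marker sum (7 genes) was at 84.6 CPM in KO5. Most of that sum was Lhx1, at 76.1 CPM, while Pax2 averaged 0.262 CPM in knockout and 0.507 CPM in wild type. It was therefore not taken as a measure of interneurons.

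Of the wild-type libraries, WT2 stood apart most often. In it Igf1 was at 25.8 CPM and Ackr3 at 4.73 CPM, with the next wild-type libraries at 10.1 and 2.89 CPM. Also in WT2, Itch was at 125.8 CPM, Hmgb1 at 379 CPM, Rap1a at 189 CPM, Crk at 421 CPM and Pdpk1 at 144 CPM, each the highest of 6, and Pik3r2 at 48.3 CPM the lowest. These pathway genes were named for the smallest p in their lists, in the comparison without KO4 and WT2. The Purkinje marker sum in WT2 was 665 CPM and the glial marker sum 2311 CPM, with the next libraries at 370 and 1146 CPM. The meningeal marker sum was 840 CPM in WT3, with the next of the 5 compared wild-type libraries at 538 CPM.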

How the results depend on the processing

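The comparison called 3 of 13442 genes. It called 466 with DESeq2, 965 without the filter on low counts, 5 with the GC trend removed, 1 with all 12 libraries, 1 without WT2 alone, 0 with KO2 counted as wild type, and 0 to 3102 with 1 library left out (3102 without KO5, 6 without KO6, 1 without KO8 or WT6, 0 without KO2 or WT7). Of the 9 genes 0 were called, against 1 (Igf1) with DESeq2, 1 without the filter and 0 to 1 with 1 library left out. Of the pathway genes 0 were called, against 2, 6 and 0 to 26. Of all genes, DESeq2 called 4.75%, the fit without the filter 3.49% and that without KO5 22.9%.

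Ackr3, Ntrk2, Igf1r, Cxcl12 and Igf1 had the same direction in all 24 alternatives. Igf1r (0.31) was at 0.11 with 1 surrogate variable, at 0.091 with the replicate block and at 0.088 with block and GC correction. The block fits draw the estimate only from numbers found in both groups, so KO2, KO8, WT1 and WT7 add nothing to it. Cxcr4 turned to 0.040 with all 12 libraries, 0.058 with KO2 as wild type and 0.29 with 1 surrogate variable, and ranged from -0.27 to 0.032 with 1 library left out. Ntrk3 turned to -0.066 by library size alone, -0.025 with all 12 libraries, -0.0061 with voom, -0.035 with KO2 as wild type, -0.14 with the GC trend removed, -0.22 with 1 surrogate variable and -0.014 without WT2 alone, and ranged from -0.11 to 0.15 with 1 library left out. With 1 surrogate variable Pdpk1 turned to -0.0094 and Rictor (0.50) was at 0.021. The cause was not tested.

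Same-numbered libraries of the groups did not deviate together (correlations 0.111, -0.047 and 0.0936 for numbers 3, 5 and 6), so the numbers were not taken as pairs. With the replicate number as a block, and with the block and GC correction together, 0 genes were called. The log2 fold change of Cxcr4 was 0.086 and 0.021 and that of Ntrk3 -0.18 and -0.29. Only numbers 3, 5 and 6 occur in both groups, so both fits compare fewer libraries than the main one. The effect of the block and that of the lost libraries were not separated. The fits that leave out only KO4 or only WT2 were chosen after seeing the data. At 0 to 19 reads a library, Bdnf was too shallow to compare.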
